A study of Mus musculus with 24 samples.

Results

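Transcripts of cell cycle and proliferation genes were followed through the mouse lens, from the epithelium, where lens cells divide, to the cortical fibers, where they no longer do. The set holds 45 genes chosen by symbol for their known roles in the division cycle, and all 45 were found by Entrez identifier among the 24415 genes of the count table. The 24 RNA sequencing libraries form 6 groups of 4, with 3 conditions in each of 2 tissues, lens epithelia and cortical fibers. All mice were of the C57BL/6 strain. WT mice carried no modification and had no treatment. LEGSKO mice, which the series describes as mildly glutathione deficient, had no treatment either. The LEGSKO+BSO groups are LEGSKO mice given buthionine sulfoximine (BSO), described as severely deficient. From general knowledge, the LEGSKO modification deletes Gclc in the lens, and BSO blocks the ligase that Gclc encodes, the slow step in making glutathione. No group holds WT mice given BSO, so the agent and the deletion are combined in that condition. The sources used here do not give the driver of the deletion, the age of the mice or the dose of BSO. They also do not say that the 4 libraries of each group are from separate mice, so p-values measure only the spread between these libraries, which may be technical.

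Division in the lens is confined to the anterior epithelium. Cells near the lens equator leave the cycle, elongate and become fibers, which fill with crystallins and later lose their nuclei. In the division cycle, D-type cyclins and their kinases Cdk4 and Cdk6 phosphorylate the retinoblastoma family (Rb1, Rbl1, Rbl2), which releases E2F factors to transcribe genes of DNA replication, and the cyclin B kinase Cdk1 then drives mitosis. CDK inhibitors hold these kinases back, and Cdkn1b and Cdkn1c are known to act in the cycle exit of lens fiber cells. Genes of the mitotic phase are known to be shut in resting cells through a promoter element called CHR, often accompanied by CCAAT boxes.

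Library totals were 19340282 to 46569611 counts, and the 4 LEGSKO+BSO fiber libraries were the 4 deepest. Levels below are CPM (the usual counts-per-million scale) on library totals scaled by TMM over all 24 libraries, and values are listed in the order of libraries 1 to 4. The fiber library WT Fibers 1 stood apart: crystallins took 50.1% of its counts, against 27.6% to 34.3% in the other 11 fiber libraries. Gclc, the targeted gene, was at 44.8 to 64.3 CPM in WT epithelia, 30.8 to 48.3 in LEGSKO epithelia and 43.2 to 72.9 in LEGSKO+BSO epithelia, and it was not called in any of the 6 comparisons within a tissue (smallest adjusted p = 0.105). The sources used here do not say which exons the deletion removes, so the gene's total count does not check the genotype, and groups are named as labelled. The tissues did carry their markers. Of 12 fiber markers, 11 were higher in WT fibers than in WT epithelia, and of 9 epithelial markers, 8 were lower and Sfrp1 was higher. Markers of neighbouring tissues also differed between WT epithelia and WT fibers in summed CPM: 13 retina genes were at 189 to 430 against 21.9 to 32, 10 cornea and conjunctiva genes at 6460.0 to 9000.0 against 2260.0 to 3060.0, 10 genes of pigmented iris and ciliary body at 178 to 220.0 against 44 to 56.4, and 11 muscle and stroma genes at 101 to 144 against 740.0 to 844. For 15 immune, 9 blood vessel and 6 red blood cell genes the sums were 3.48 to 10.1, 15.7 to 24.1 and 1.27 to 9.12 in WT epithelia, against 1.33 to 2.59, 2.38 to 5.15 and 0.166 to 0.409 in WT fibers. Members within a sum differed. Of the pigmented iris and ciliary body genes, 7 were lower in WT fibers and Mitf was higher, at 1370% of its epithelial level. Of the blood vessel genes, 4 were lower and Pecam1 was higher, at 574%. The 5 cornea and conjunctiva genes tested were all lower in WT fibers, but Clu kept 38.6% of its epithelial level and Krt15, Krt19, Krt4 and Aldh3a1 kept 2.39% to 9.4%. Of the 5 muscle and stroma genes tested, Acta2 and Acta1 were higher, while Col1a1, Col1a2 and Myh11 were lower (median log2 -1.35). The part of these cells and tissues in the differences between epithelia and fibers was not tested.

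Fibers were first set against epithelia of the same condition. The series compares samples only within a tissue, so this comparison is not one it lists, and it bears on where in the lens these genes are expressed. In WT, 33 of the 45 genes were lower in fibers and 7 were higher by edgeR's quasi-likelihood test at an adjusted p below 0.05 (Benjamini-Hochberg). The tissues differ widely, and 76.4% of the 15560 genes tested were called, 39.4% lower and 37% higher. The median log2 change of the 45 genes was -1.41, against -0.09 over all genes tested. In LEGSKO, 32 were lower and 7 higher, where 75.8% of all genes were called (39% lower, 36.8% higher), and in LEGSKO+BSO 34 were lower and 6 higher, where 78.9% were called (40.8% lower, 38.1% higher). Values of the tissues did not overlap for 38 of the 45 genes in WT, where 67.5% of all genes did not overlap, for 36 in LEGSKO, beside 71.1% of all genes, and for 41 in LEGSKO+BSO, beside 76.1%. In these tissue samples, fewer cycling cells and less RNA per cell cannot be told apart.

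All 45 genes passed the filter on low counts in the fit over both tissues, but 8 of them (E2f2, Cdc6, Ccnb1, Ccnb2, Cdk1, Cdc25c, Aurkb, Bub1) failed it when fibers were taken alone. These 8 were testable only through the epithelia and had to be lower in fibers. They are also counted among the genes without overlap in each condition, and shares without overlap were not computed over genes passing in fibers. Among the other 37, 25 were lower and 7 higher in WT, and the median log2 change was -0.91. Of the 13426 genes of the whole table that pass the filter in fibers alone, 34.8% were lower and 42.8% higher. In LEGSKO 24 of the 37 were lower and 7 higher (35% and 42.5% of the 13426). In LEGSKO+BSO 26 were lower and 6 higher (35.6% and 44.1%). The sizes of all tissue changes, and the direction of most increases, depend on the scaling. When libraries were scaled to their total counts without TMM, the median change of all genes moved to -1.25, the share of higher calls among all called genes fell from 48.4% to 14.7%, and 43 of the 45 genes were lower and 1, Cdkn1c, was higher, in WT and in each of the other conditions. Of all 15560 genes tested, 11462 were lower and 1982 higher in WT on that scale. Leaving out any 1 WT library left 38 or 39 of the 45 called; without WT Fibers 1, E2f1, Cdk4 and Aurka lost the higher call they had under TMM, Mcm7 was called higher (lower on total counts) and Rrm1 lower, and without WT Fibers 4, Birc5 lost its call and Ccne1 was called lower.

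**Figure D1:**
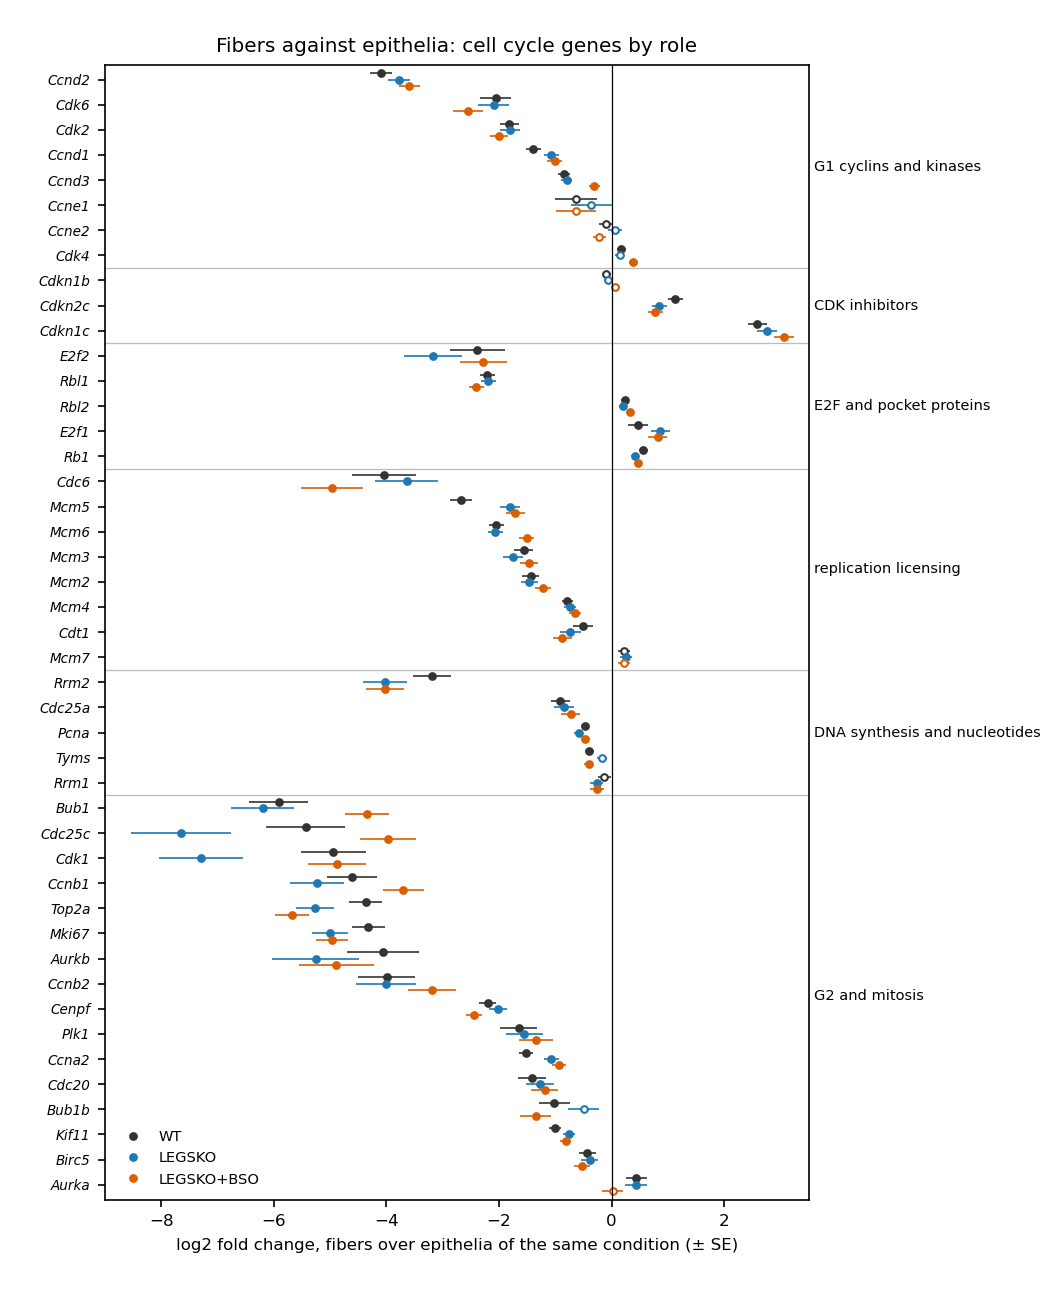
Log2 fold change of each of the 45 genes in fibers over epithelia of the same condition, with its standard error, grouped by role and coloured by condition; filled points were called at an adjusted p below 0.05 and open points were not. The lowest values lie among the genes of G2 and mitosis, down to -5.91 for Bub1 in WT, and the highest is Cdkn1c (2.59 in WT), the one gene still higher when libraries are scaled to total counts; Cdc25c, with 0 counts in LEGSKO fibers, has a fitted value there that is no bound.

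G1 cyclins and kinases, which carry a cell toward DNA replication, did not move as one group. Of 8 genes, 5 were lower in WT fibers (Ccnd1, Ccnd2, Ccnd3, Cdk6, Cdk2) and 1, Cdk4, was higher under TMM (lower on total counts). Ccnd2 encodes cyclin D2, a partner of Cdk4 and Cdk6, and its CPM in epithelia was 344, 315, 326, 273 (WT), 301, 334, 296, 349 (LEGSKO) and 294, 329.6, 291, 268 (LEGSKO+BSO). Ccnd2 CPM in fibers was 28.1, 17.5, 18.2, 11.02 (WT), 20.1, 23.3, 27.2, 22.7 (LEGSKO) and 21.7, 21.7, 20.6, 34.2 (LEGSKO+BSO). Every fiber library was below every epithelial library, and Ccnd2 was 17.1-fold lower in WT fibers (log2 -4.09 ± 0.20 SE, adjusted p = 1.23e-15), 13.7-fold lower in LEGSKO and 12.05-fold lower in LEGSKO+BSO.

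Ccnd1 encodes cyclin D1 and lay in the same direction with a smaller difference. Ccnd1 CPM in epithelia was 174, 299.6, 267, 304 (WT), 279, 254, 234, 284 (LEGSKO) and 250.4, 315, 254, 235 (LEGSKO+BSO). Ccnd1 CPM in fibers was 124, 88.05, 101, 86.8 (WT), 118, 137, 128, 117 (LEGSKO) and 129, 128, 128, 138 (LEGSKO+BSO). The lowest epithelial value, in WT Epithelia 1, stood above all fiber values, and Ccnd1 was 2.62-fold lower in WT fibers (log2 -1.39 ± 0.14 SE, adjusted p = 1.38e-09). Per kilobase of exon, the mean CPM level of Ccnd1, Ccnd2 and Ccnd3 in WT epithelia was 55.5, 33.4 and 5.68, and in WT fibers it was 21.2, 1.99 and 3.19. The ratio of Ccnd2 to Ccnd1 per kilobase thus went from 0.45 to 0.99 in WT epithelia to 0.0636 to 0.113 in WT fibers, and the order of Ccnd2 and Ccnd3 turned round. Exons of a gene on the opposite strand overlap 23.4% of the Ccnd1 exons, and without strand information their reads cannot be told apart.

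Among the kinases, Cdk2, the partner of cyclins E and A, was lower like Ccnd2, while Cdk4 was lower only on total counts. Cdk2 CPM in epithelia was 11.6, 10.7, 9.86, 10.5 (WT), 8.65, 10.4, 11.3, 9.93 (LEGSKO) and 10.4, 10.04, 10.3, 12.5 (LEGSKO+BSO). Cdk2 CPM in fibers was 1.88, 3.38, 3.33, 3.26 (WT), 2.27, 2.3, 2.69, 4.26 (LEGSKO) and 2.47, 2.63, 2.46, 3.21 (LEGSKO+BSO). The tissues did not overlap in any condition, and the WT difference was 3.53-fold (log2 -1.82 ± 0.17 SE, adjusted p = 4.83e-10). Cdk6 was 4.16-fold lower in WT fibers (adjusted p = 2.23e-07).

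Cdk4 CPM in epithelia was 43.5, 37.5, 39.8, 40.2 (WT), 40.2, 37.9, 45.7, 43.9 (LEGSKO) and 40.3, 36.9, 36.1, 37.5 (LEGSKO+BSO). Cdk4 CPM in fibers was 44.8, 45.9, 46.7, 44.6 (WT), 38.3, 53.5, 47.4, 46.6 (LEGSKO) and 50.9, 45.9, 52.7, 48.3 (LEGSKO+BSO). In WT each fiber value was above each epithelial value by a small margin (log2 0.18 ± 0.08 SE, adjusted p = 0.04896), but on total counts the direction turned (log2 -0.99, adjusted p = 4.55e-08), and the call held only without WT Epithelia 1 among the alternatives run. In LEGSKO+BSO fibers Cdk4 was 1.31-fold higher (adjusted p = 8.66e-05) under TMM, also lower on total counts. The E cyclins Ccne1 and Ccne2, which start DNA replication with Cdk2, were not called, at log2 -0.62 and -0.10 in WT.

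Of the 3 CDK inhibitors, 2 were higher in WT fibers under TMM and 0 were lower (on total counts, 1 higher and 1 lower). Cdkn1c was the gene of the 45 with the largest increase in WT fibers, Cdkn2c also rose under TMM scaling (not on total counts), and Cdkn1b was not called. Cdkn1c, an inhibitor of cyclin-CDK complexes and an imprinted gene, had CPM in epithelia of 86.4, 76.4, 67.8, 65.7 (WT), 83.99, 61.8, 54.95, 71.3 (LEGSKO) and 47.2, 87.4, 54.5, 39.3 (LEGSKO+BSO). Cdkn1c CPM in fibers was 485, 408, 443, 451 (WT), 414, 526, 459, 451 (LEGSKO) and 453, 483, 493, 479 (LEGSKO+BSO). All 12 fiber values lay above all 12 epithelial values, at 6.03-fold in WT (log2 2.59 ± 0.17 SE, adjusted p = 6.82e-13), 6.799-fold in LEGSKO and 8.37-fold in LEGSKO+BSO. Exons of a gene model on the opposite strand cover 30.7% of the Cdkn1c exons.

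Cdkn2c encodes an inhibitor of Cdk4 and Cdk6. Cdkn2c CPM in epithelia was 13.9, 18.9, 15.2, 16.3 (WT), 16.7, 17.3, 16.8, 18.5 (LEGSKO) and 20.7, 16.7, 15.9, 14.5 (LEGSKO+BSO). Cdkn2c CPM in fibers was 46.4, 29.6, 36.2, 29.6 (WT), 29.1, 33.7, 31.4, 31 (LEGSKO) and 27.8, 27.6, 34.7, 26.3 (LEGSKO+BSO). The fiber values were higher without overlap, 2.195-fold in WT (log2 1.13 ± 0.13 SE, adjusted p = 1.93e-08), and on total counts WT was at log2 -0.073 (adjusted p = 0.569).

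Cdkn1b, an inhibitor of the same family as Cdkn1c, had CPM in epithelia of 61.05, 67.7, 68.9, 70.02 (WT), 64.2, 55.2, 61.5, 62.5 (LEGSKO) and 52.7, 62.9, 53.01, 53.01 (LEGSKO+BSO). Cdkn1b CPM in fibers was 53.7, 65.8, 61.4, 69.5 (WT), 56.6, 57.8, 58.7, 61.1 (LEGSKO) and 56.8, 65.04, 51.6, 58.8 (LEGSKO+BSO). The 2 tissues overlapped in every condition and the WT change was log2 -0.09 ± 0.08 SE, adjusted p = 0.298, and on total counts Cdkn1b was called lower (log2 -1.24, adjusted p = 1.11e-08). The ratio of Cdkn1c to Cdkn1b per kilobase, which no scaling of libraries affects, was 2.09 to 3.16 in WT epithelia and 13.8 to 20.2 in WT fibers.

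E2F factors and the retinoblastoma family split by member. Of 5 genes, E2f1, Rb1 and Rbl2 were higher in WT fibers under TMM and lower on total counts, while E2f2 and Rbl1 were lower under both. Rbl1 encodes the pocket protein that is itself made in cycling cells. Rbl1 CPM in epithelia was 12.9, 11.7, 14.96, 13.5 (WT), 11.8, 13.6, 13.3, 12.1 (LEGSKO) and 12.01, 11.7, 12.1, 13.8 (LEGSKO+BSO). Rbl1 CPM in fibers was 2.78, 3.66, 2.495, 2.504 (WT), 2.62, 2.62, 3.28, 2.61 (LEGSKO) and 2.095, 2.91, 1.97, 2.39 (LEGSKO+BSO). No fiber library reached an epithelial value, and Rbl1 was 4.61-fold lower in WT fibers (log2 -2.20 ± 0.14 SE, adjusted p = 1.58e-13).

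Rbl2, the pocket protein of resting cells, had CPM in epithelia of 42.1, 50.2, 47.9, 47.1 (WT), 46.6, 49.3, 47.05, 51.01 (LEGSKO) and 49.3, 45.9, 45.3, 40.7 (LEGSKO+BSO). Rbl2 CPM in fibers was 59.4, 51.9, 54.6, 55.3 (WT), 56.8, 50.9, 59.9, 56.4 (LEGSKO) and 56.4, 56.7, 57.7, 56.4 (LEGSKO+BSO). WT fibers were 1.18-fold higher under TMM (log2 0.24 ± 0.07 SE, adjusted p = 0.00241) and lower on total counts, and the call was lost when the 2 groups were fitted alone (adjusted p = 0.0555). The ratio of Rbl1 to Rbl2 per kilobase was 0.293 to 0.394 in WT epithelia and 0.0571 to 0.0889 in WT fibers.

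Rb1, the retinoblastoma gene itself, had CPM in epithelia of 16.8, 16.8, 16.3, 15.7 (WT), 18.4, 19.6, 17.8, 19.4 (LEGSKO) and 18.5, 16.8, 19.8, 17.5 (LEGSKO+BSO). Rb1 CPM in fibers was 22.5, 28.02, 23.6, 22.8 (WT), 25.1, 23.8, 25.8, 25.6 (LEGSKO) and 26.6, 24.8, 24.7, 24.5 (LEGSKO+BSO). Its fiber values were 1.48-fold higher in WT under TMM (log2 0.57 ± 0.07 SE, adjusted p = 1.04e-07) and lower on total counts, with no overlap of the TMM values.

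E2f2, an activating E2F factor, had CPM in epithelia of 1.27, 1.54, 1.41, 2.13 (WT), 1.99, 2.14, 2.08, 2.102 (LEGSKO) and 2.68, 1.26, 1.92, 3.401 (LEGSKO+BSO). E2f2 CPM in fibers was 0.0818, 0.371, 0.388, 0.301 (WT), 0.398, 0.192, 0.176, 0.127 (LEGSKO) and 0.135, 0.949, 0.164, 0.649 (LEGSKO+BSO). It was 5.23-fold lower in WT fibers (log2 -2.39 ± 0.49 SE, adjusted p = 1.02e-04), from 22 counts in the 4 WT fiber libraries together. E2f1, the related activator, was 1.39-fold higher in WT fibers under TMM (adjusted p = 0.0179) and 1.83-fold higher in LEGSKO, with overlapping WT values; on total counts it was called lower in WT and was not called in LEGSKO.

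**Figure D2:**
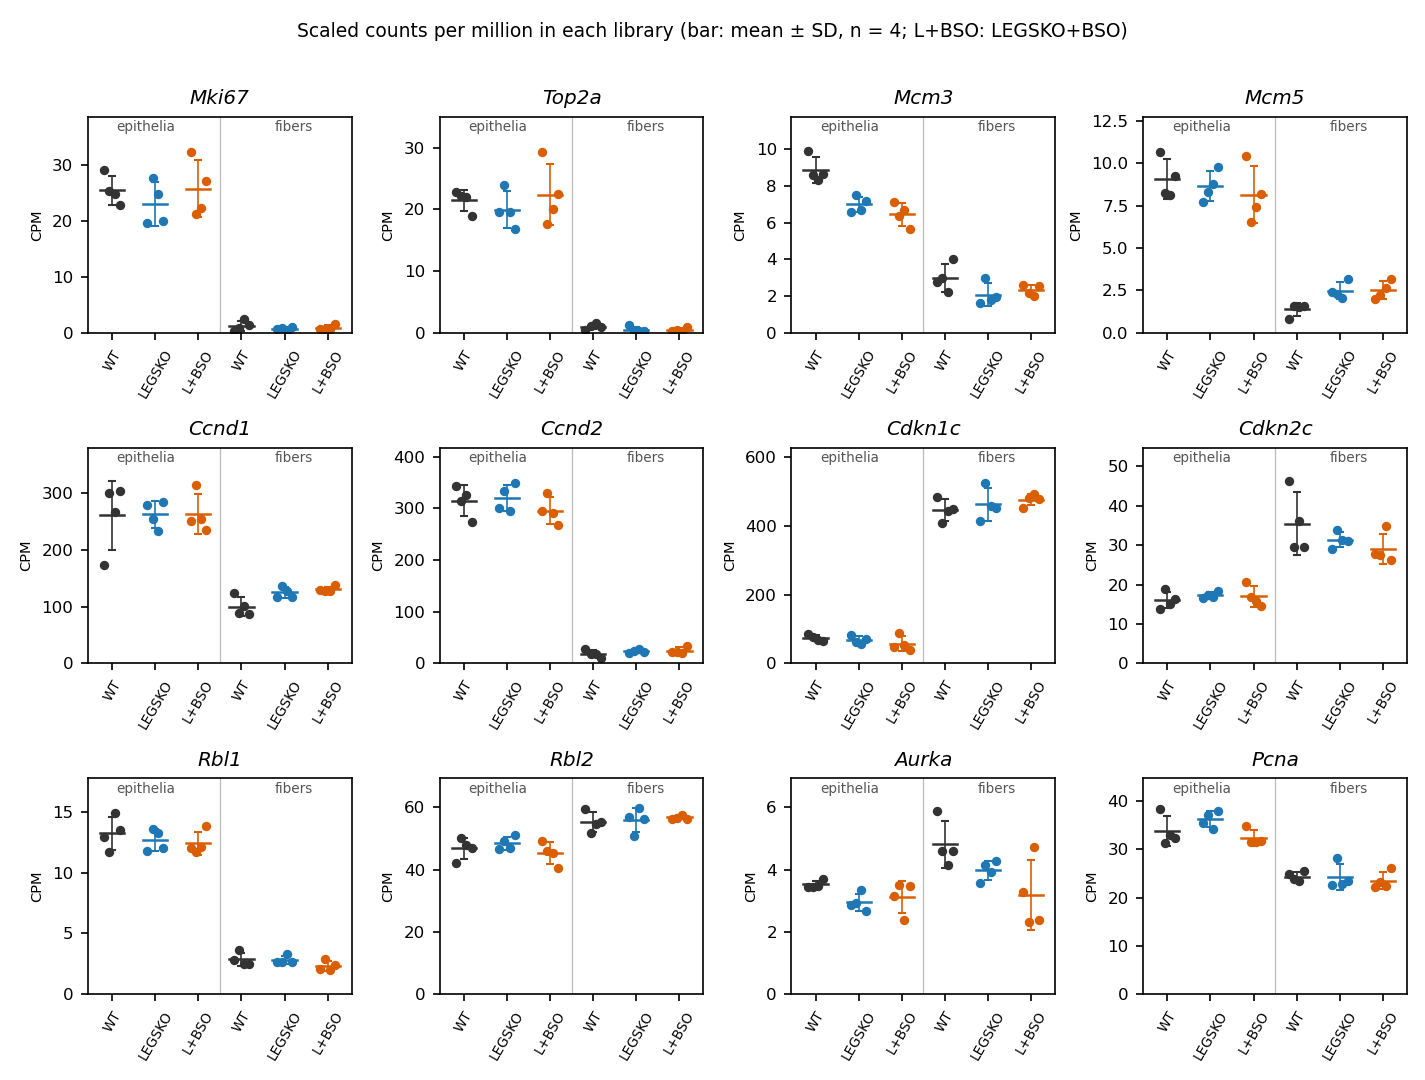
CPM of 12 genes in each library, with epithelia to the left and fibers to the right in each panel; points are libraries and bars the mean and SD of 4. Mki67, Top2a, Ccnd2 and Rbl1 drop in fibers without overlap, Cdkn1c and Cdkn2c are higher in fibers on this scale (Cdkn2c not on total counts), and within each tissue the Mki67 and Top2a values of the 3 conditions overlap.

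Replication licensing genes load the Mcm helicase onto DNA ahead of replication. Of 8 genes, 7 were lower in WT fibers and Mcm7 was not called. The subunits Mcm2 to Mcm7 work as one ring with each subunit once, yet they did not change by the same amount: in WT fibers the log2 change was -1.43 for Mcm2, -1.56 for Mcm3, -0.78 for Mcm4, -2.68 for Mcm5, -2.05 for Mcm6 and 0.22 for Mcm7 (adjusted p = 0.0701). The loading factor Cdc6 was 16.4-fold lower, from 8 counts in WT fibers, and Cdt1 was 1.42-fold lower.

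Mcm5 CPM in epithelia was 10.7, 8.23, 8.13, 9.26 (WT), 7.704, 8.31, 8.77, 9.79 (LEGSKO) and 10.4, 6.53, 7.42, 8.18 (LEGSKO+BSO). Mcm5 CPM in fibers was 0.818, 1.57, 1.497, 1.603 (WT), 2.39, 2.3, 2.05, 3.18 (LEGSKO) and 1.99, 2.204, 2.63, 3.18 (LEGSKO+BSO). The tissues were far apart in every condition, with 6.41-fold in WT (log2 -2.68 ± 0.20 SE, adjusted p = 5.95e-12), and among fibers all 4 WT values lay below all LEGSKO and LEGSKO+BSO values.

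Mcm6 CPM in epithelia was 16.5, 14.5, 15.6, 11.4 (WT), 13.6, 15.7, 14.2, 14.7 (LEGSKO) and 13.8, 12.7, 11.8, 11.8 (LEGSKO+BSO). Mcm6 CPM in fibers was 2.94, 3.43, 4.27, 3.31 (WT), 3.75, 3.39, 3.51, 3.25 (LEGSKO) and 4.16, 3.49, 4.67, 5.26 (LEGSKO+BSO). Mcm6 was 4.13-fold lower in WT fibers (log2 -2.05 ± 0.13 SE, adjusted p = 6.01e-13), without overlap. The ratio of Mcm7 to Mcm5 per kilobase was 1.23 to 1.67 in WT epithelia, 9.72 to 14.1 in WT fibers, 4.78 to 8.15 in LEGSKO fibers and 4.76 to 7.32 in LEGSKO+BSO fibers. Exons of other genes overlap 12.6% of those of Mcm7: Ap4m1 and Cops6 on the opposite strand, and the microRNA genes Mir25 and Mir93 on the same strand. Reads of Ap4m1 and Cops6 there cannot be told apart from those of Mcm7 without strand information. Reads of Mir25 and Mir93 could not be told apart even with it.

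**Figure D3:**
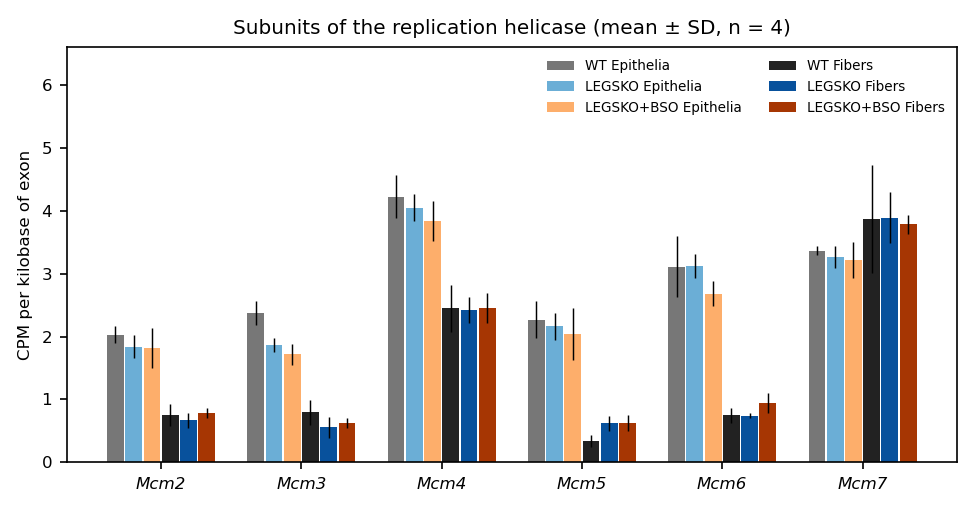
Mean CPM per kilobase of exon of the 6 helicase subunits in the 6 groups, with the SD of 4 libraries; lighter bars are epithelia and darker bars fibers. Mcm2 to Mcm6 are lower in fibers in every condition, while the WT tissues overlap for Mcm7 on this scale (12.8 to 21.95 CPM in fibers and 14.5 to 15.3 in epithelia; called lower on total counts).

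Genes of DNA synthesis and nucleotide supply showed the same unevenness. Of 5 genes, 4 were lower in WT fibers (Pcna, Rrm2, Tyms, Cdc25a) and Rrm1 was not called. Rrm2 encodes the regulated small subunit of ribonucleotide reductase, which makes deoxynucleotides. Rrm2 CPM in epithelia was 9.22, 6.19, 4.84, 5.197 (WT), 4.96, 6.43, 4.74, 5.78 (LEGSKO) and 10.7, 5.07, 6.04, 7.03 (LEGSKO+BSO). Rrm2 CPM in fibers was 0.409, 0.509, 0.943, 0.851 (WT), 0.114, 0.575, 0.468, 0.191 (LEGSKO) and 0.338, 0.796, 0.329, 0.273 (LEGSKO+BSO). It was 9.13-fold lower in WT fibers (log2 -3.19 ± 0.34 SE, adjusted p = 6.58e-09), while Rrm1, the large subunit of the same enzyme, was at log2 -0.12 (adjusted p = 0.343).

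Pcna, the sliding clamp of DNA polymerases, is also used in DNA repair. Pcna CPM in epithelia was 38.4, 31.3, 32.98, 32.4 (WT), 35.5, 37.1, 34.3, 37.95 (LEGSKO) and 34.8, 31.5, 31.5, 31.7 (LEGSKO+BSO). Pcna CPM in fibers was 24.8, 23.8, 23.3, 25.4 (WT), 22.7, 28.2, 22.8, 23.4 (LEGSKO) and 22.2, 23.1, 22.4, 26.1 (LEGSKO+BSO). All fiber values were below all epithelial values, by 1.39-fold in WT (log2 -0.47 ± 0.08 SE, adjusted p = 6.38e-06). Tyms, thymidylate synthase, kept 76.6% of its WT epithelial level in WT fibers under TMM (34.2% on total counts), and Cdc25a, a phosphatase that activates CDKs, kept 54.4% (24.3% on total counts).

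Genes of G2 and mitosis held the largest decreases and also several genes that kept much of their level. Of 16 genes, 15 were lower in WT fibers and Aurka was higher under TMM and lower on total counts, and the median log2 change was -3.10. Of the 16, 6 (Ccnb1, Ccnb2, Cdk1, Cdc25c, Aurkb and Bub1) are among the genes that failed the filter in fibers and had to be lower, and over the other 10 the median was -1.47, with 9 lower. Mki67 encodes the proliferation marker Ki-67. Mki67 CPM in epithelia was 29.1, 25.4, 24.9, 22.9 (WT), 19.7, 27.6, 24.9, 20 (LEGSKO) and 32.3, 21.2, 22.4, 27.2 (LEGSKO+BSO). Mki67 CPM in fibers was 0.327, 0.834, 2.44, 1.302 (WT), 0.739, 0.767, 0.293, 1.08 (LEGSKO) and 0.575, 0.582, 0.624, 1.54 (LEGSKO+BSO). Mki67 was 19.99-fold lower in WT fibers (log2 -4.32 ± 0.29 SE, adjusted p = 8.71e-13), 32.1-fold lower in LEGSKO and 31.3-fold lower in LEGSKO+BSO. WT Fibers 3 held the highest WT fiber value, and without it the WT change was log2 -4.84. Between LEGSKO and WT fibers Mki67 was not called (log2 -0.80 ± 0.54 SE, adjusted p = 0.519).

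Top2a, the topoisomerase that untangles chromosomes, went with it. Top2a CPM in epithelia was 22.8, 22.2, 21.97, 18.98 (WT), 19.5, 24.01, 19.5, 16.8 (LEGSKO) and 29.2, 17.7, 20.1, 22.5 (LEGSKO+BSO). Top2a CPM in fibers was 0.409, 1.16, 1.497, 0.902 (WT), 1.19, 0.319, 0.234, 0.255 (LEGSKO) and 0.338, 0.429, 0.131, 0.854 (LEGSKO+BSO). Top2a was 20.6-fold lower in WT fibers (log2 -4.37 ± 0.29 SE, adjusted p = 7.46e-13) and 51.1-fold lower in LEGSKO+BSO.

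The lowest genes kept under 10% of their epithelial level on the TMM scale. In WT fibers these were 10 of the 45: Ccnd2, Cdc6 and 8 mitotic genes (15 of the 45 on total counts). As a percent of the WT epithelial level, with an exact Poisson 95% interval that covers counting error only, WT fibers kept 5.03% of Mki67 (4.05 to 6.19), 4.88% of Top2a (3.82 to 6.13), 3.08% of Cdk1 (1.12 to 6.76), 3.89% of Ccnb1 (1.67 to 7.75) and 6.22% of Ccnb2 (2.95 to 11.6). Cdk1 is the mitotic kinase and Ccnb1 and Ccnb2 are its cyclins, and they rested on 6, 8 and 10 counts in the 4 WT fiber libraries, with 5 of the 6 Cdk1 counts in WT Fibers 3. The chromosome passenger kinase Aurkb kept 5.76% (2.61 to 11.1) from 9 counts, all in WT Fibers 3, and the spindle checkpoint kinase Bub1 kept 1.5% (0.307 to 4.41) from 3 counts, also all in that library. Cdc25c, the phosphatase that activates Cdk1, had 1 count in WT fibers, 1.72% of the epithelial level (0.0431 to 9.79), and 0 counts in LEGSKO fibers, at least 19.5-fold lower when 3 counts over the group are taken as the floor.

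Other mitotic genes kept larger shares, given here under TMM. Birc5, which encodes survivin, a partner of Aurkb, kept 73.8% of its WT epithelial level in WT fibers, the spindle motor Kif11 and the checkpoint kinase Bub1b each kept 49.4%, and Cdc20, an activator of the anaphase-promoting complex, kept 38.5%. Cyclin A2 (Ccna2) kept 34.6%, the mitotic kinase Plk1 31.6% and the kinetochore protein Cenpf 21.8%. On total counts each share was lower, at 33% for Birc5, 22.1% for Kif11 and for Bub1b, 17.2% for Cdc20, 15.5% for Ccna2, 14.1% for Plk1 and 9.71% for Cenpf. All 7 were lower by test in WT, from 1.34-fold for Birc5 (adjusted p = 0.0147) to 4.603-fold for Cenpf (adjusted p = 1.13e-12).

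Aurka encodes the centrosomal kinase Aurora A. Aurka CPM in epithelia was 3.44, 3.45, 3.49, 3.71 (WT), 2.87, 2.91, 3.33, 2.66 (LEGSKO) and 3.14, 3.51, 2.396, 3.46 (LEGSKO+BSO). Aurka CPM in fibers was 5.89, 4.59, 4.16, 4.61 (WT), 3.58, 4.15, 3.92, 4.26 (LEGSKO) and 3.28, 2.33, 4.73, 2.39 (LEGSKO+BSO). The WT fiber values lay above the WT epithelial values (log2 0.44 ± 0.19 SE, adjusted p = 0.0349), but the tissues overlapped in LEGSKO+BSO (log2 0.02 ± 0.18 SE, adjusted p = 0.915). The WT call was lost without WT Fibers 1 (adjusted p = 0.146) and without any 1 of WT Epithelia 1, 2 and 3. It was also lost with DESeq2 size factors (adjusted p = 0.069), the DESeq2 test (0.0768), no filter (0.0525) and a fit of only the 2 groups (0.0663). On total counts Aurka was lower in WT fibers (log2 -0.75).

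Promoters of these genes were read because members that fell together could be set beside members that kept their level. RefSeq gives a promoter for 36 of the 45 genes, in the table of GRCm38.p6, and the 250 bases before the start were searched on both strands for the CHR letters TTTGAA, for CCAAT and for the E2F letters TTTCCCGC, TTTCGCGC, TTTGGCGC and TTTGCCGC. CHR letters were found in 9 of the 36 genes and in 16.0% of all 32851 promoters of the table, CCAAT in 25 of 36 and in 33.8%, and an E2F match in 8 of 36 and in 1.86%. The 36 genes have 40 promoter entries, and a gene was counted when any of its entries held a match. The percents are per entry, so the measures are not quite alike. Of the 10 genes under 10% in WT fibers, 7 had a promoter entry, and 4 of these held CHR letters (Ccnb2, Cdk1, Mki67, Top2a) and 6 held CCAAT. Of the 16 genes from 10% to under 50%, 14 had an entry, 4 held CHR letters (Cdc20, E2f2, Kif11, Mcm2) and 12 held CCAAT, so CCAAT was about as frequent there as among the lowest genes. The CHR letters of E2f2 lay only in its second entry, whose start is 8508 bases inside the gene. Of the 19 genes that kept at least 50% of the epithelial level on the TMM scale (8 genes on total counts), 15 had an entry, 1 held CHR letters (Rbl2) and 7 held CCAAT. These are letter matches in a short window, described with no test.

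The promoters shown were picked and do not stand for their classes. Ccnb1 (3.89% kept in WT fibers) and Bub1 (1.5%) are low mitotic genes with 0 CHR matches and are not shown. Kif11, which kept 49.4%, held 1 CHR match and is not shown either. Shown first are the 4 promoters of low mitotic genes with CHR letters. After them come Aurka and Birc5, which kept a larger share of their level on the TMM scale, and Mcm6, the member with 3 E2F matches. Each runs 5′ to 3′ up to the transcript start that the RefSeq table uses, with motif matches in capitals, where ATTGG and TTCAAA are CCAAT and CHR on the other strand. They lie at chr7:135716380-135716629 for Mki67, chr11:99024190-99024439 for Top2a, chr10:69352913-69353162 for Cdk1, chr9:70421555-70421804 for Ccnb2, chr2:172370571-172370820 for Aurka and chr1:128359706-128359955 for Mcm6, all on the minus strand, and chr11:117848987-117849236 for Birc5 on the plus strand. For Aurka, Mki67 and Top2a that start lies 316, 71 and 10 bases inside the RefSeq gene, so the Aurka window is wholly within the gene's outer bounds, and for the other 4 it is the gene's first base. The nearest transcript start in GENCODE vM21 was 35 bases away for Aurka, 41 for Mcm6, 18 for Mki67, 14 for Birc5, 7 for Ccnb2, 2 for Cdk1 and 0 for Top2a.
Mki67: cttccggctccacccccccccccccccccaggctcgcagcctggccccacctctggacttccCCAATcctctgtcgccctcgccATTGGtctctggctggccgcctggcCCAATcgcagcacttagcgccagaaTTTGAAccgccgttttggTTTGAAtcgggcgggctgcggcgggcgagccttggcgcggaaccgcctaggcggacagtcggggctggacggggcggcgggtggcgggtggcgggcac
Top2a: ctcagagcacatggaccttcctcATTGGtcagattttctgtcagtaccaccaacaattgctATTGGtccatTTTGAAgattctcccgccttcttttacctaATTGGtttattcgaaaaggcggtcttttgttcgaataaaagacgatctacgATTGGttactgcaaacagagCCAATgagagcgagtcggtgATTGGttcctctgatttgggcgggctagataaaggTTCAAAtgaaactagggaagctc
Cdk1: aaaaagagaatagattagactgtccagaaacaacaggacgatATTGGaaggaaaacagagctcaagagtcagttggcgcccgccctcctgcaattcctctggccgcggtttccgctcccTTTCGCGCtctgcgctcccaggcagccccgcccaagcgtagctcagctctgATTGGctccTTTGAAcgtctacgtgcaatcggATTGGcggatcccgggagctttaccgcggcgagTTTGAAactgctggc
Ccnb2: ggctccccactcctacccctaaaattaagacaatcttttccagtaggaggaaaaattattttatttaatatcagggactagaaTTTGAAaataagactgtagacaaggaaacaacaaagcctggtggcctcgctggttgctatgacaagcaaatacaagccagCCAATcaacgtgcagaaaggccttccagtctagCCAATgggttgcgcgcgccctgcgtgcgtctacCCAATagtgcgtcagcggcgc
Aurka: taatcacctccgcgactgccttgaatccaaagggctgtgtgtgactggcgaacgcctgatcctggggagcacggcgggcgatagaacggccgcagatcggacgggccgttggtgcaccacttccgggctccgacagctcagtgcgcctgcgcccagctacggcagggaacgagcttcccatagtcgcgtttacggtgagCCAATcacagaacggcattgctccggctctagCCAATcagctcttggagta
Birc5: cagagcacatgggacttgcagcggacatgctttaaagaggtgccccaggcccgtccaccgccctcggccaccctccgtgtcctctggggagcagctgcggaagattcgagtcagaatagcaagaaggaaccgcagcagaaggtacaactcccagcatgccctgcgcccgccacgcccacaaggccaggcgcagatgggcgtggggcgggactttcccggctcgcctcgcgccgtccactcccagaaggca
Mcm6: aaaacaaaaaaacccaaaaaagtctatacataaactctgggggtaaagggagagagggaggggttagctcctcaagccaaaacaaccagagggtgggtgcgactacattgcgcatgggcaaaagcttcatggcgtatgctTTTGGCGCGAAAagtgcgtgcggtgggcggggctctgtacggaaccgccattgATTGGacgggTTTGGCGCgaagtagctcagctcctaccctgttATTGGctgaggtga
In this window Mki67 and Cdk1 each hold 2 CHR and 3 CCAAT matches, Top2a holds 2 and 6, and Ccnb2 holds 1 and 3. Cdk1 has an E2F match in addition. Aurka holds 2 CCAAT matches and no CHR letters, and Birc5 holds no match to any of the 3 motifs. Mcm6 holds 3 E2F matches, 2 of which overlap on opposite strands, and 2 CCAAT matches.

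The small mitotic signal in fibers differed between fiber libraries, and markers of lens epithelium were read beside it. Of the 9 epithelial markers, 6 were under 10% of the epithelial level in WT fibers (Foxe3, Cdh1, Pdgfra, Slc38a3, Npnt, Gja1), and these 6 and the 8 low mitotic genes were picked after their values were seen. Averaged over the 6 markers, the WT fiber libraries held 2.65%, 3.81%, 5.38% and 2.84% of the level in WT epithelia, and their summed CPM of the 8 mitotic genes was 1.75%, 3.67%, 8.51% and 4.13%. In LEGSKO fibers the markers were at 4.63%, 3.97%, 3.78% and 4.79% and the mitotic genes at 4.13%, 2.71%, 1.35% and 2.48%. LEGSKO+BSO fibers had 3.10%, 3.17%, 2.03% and 7.12% for the markers and 2.83%, 2.92%, 2.05% and 5.44% for the mitotic genes. WT Fibers 3 and LEGSKO+BSO Fibers 4 were the highest of the 12 in both measures. Elsewhere the measures parted: LEGSKO Fibers 4 had the highest marker level of its group and not the highest mitotic sum, and LEGSKO Fibers 3 was above WT Fibers 4 in markers and below it in mitotic genes. The other 3 markers did not fall this far: Pax6 kept 24.7% and Itgb4 41.1% in WT, and Sfrp1 stood at 303%. Their part in the mitotic counts of fibers was not tested.

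**Figure D4:**
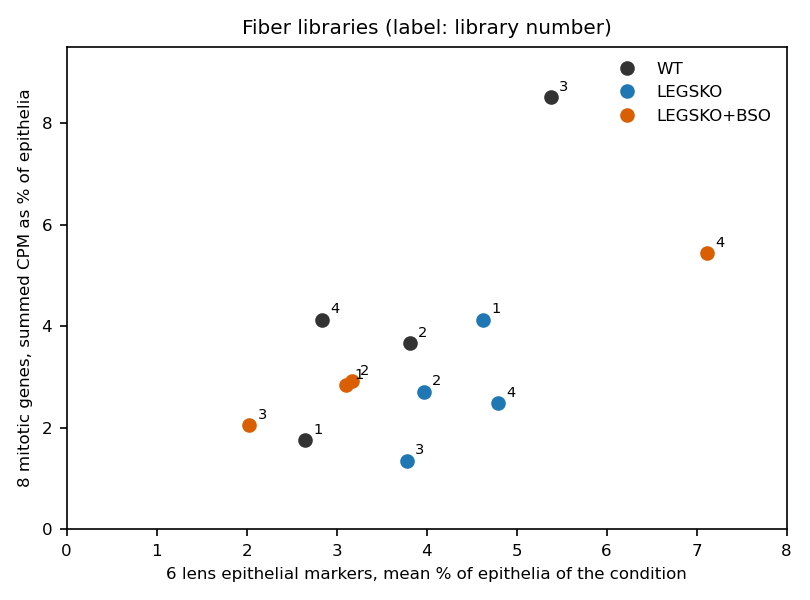
Each point is 1 of the 12 fiber libraries, labelled by its library number; the horizontal axis is the mean level of 6 lens epithelial markers and the vertical axis the summed CPM of 8 mitotic genes, both as a percent of the epithelia of the same condition. WT Fibers 3 (5.38% and 8.51%) and LEGSKO+BSO Fibers 4 (7.12% and 5.44%) lie farthest up and to the right.

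Glutathione deficiency was then compared with WT inside each tissue, the comparison the series sets out to make. In LEGSKO epithelia 0 of the 45 genes were called by edgeR (smallest adjusted p = 0.121, for Mcm3), where 0.842% of the 15089 genes tested were called (0.583% higher, 0.258% lower). Of the 45, 5 had an unadjusted p below 0.05, beside 14.1% of all genes tested, and DESeq2 also called 0. In LEGSKO+BSO epithelia 1 was called, Mcm3, lower, where 1.17% of all genes were called (0.795% higher, 0.378% lower). Between LEGSKO+BSO and LEGSKO epithelia 0 were called by edgeR (smallest adjusted p = 0.0613, for Ccnd3) against 0.722% of all genes (0.325% higher, 0.398% lower). Here 5 of the 45 had an unadjusted p below 0.05, beside 19.3% of all genes. DESeq2 called 1 of the 45, and 679 genes in all against 109 by edgeR. The median log2 change of the 45 genes was -0.10 in LEGSKO and -0.06 in LEGSKO+BSO epithelia, beside -0.01 for all genes in each, and 33 and 30 of the 45 were below 0.

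Mcm3 is the licensing subunit named above. Mcm3 CPM in epithelia was 9.904, 8.599, 8.33, 8.67 (WT), 6.599, 7.502, 6.69, 7.19 (LEGSKO) and 7.11, 6.36, 6.71, 5.63 (LEGSKO+BSO). Mcm3 CPM in fibers was 2.78, 2.96, 2.22, 4.01 (WT), 1.59, 3.003, 1.76, 1.97 (LEGSKO) and 2.602, 2.14, 2.005, 2.56 (LEGSKO+BSO). In epithelia the WT values did not overlap with either glutathione-deficient group, and Mcm3 was 1.37-fold lower in LEGSKO+BSO (log2 -0.46 ± 0.10 SE, adjusted p = 0.04802) and 1.28-fold lower in LEGSKO without reaching the threshold (log2 -0.36 ± 0.10 SE, adjusted p = 0.121). The LEGSKO+BSO call did not survive leaving out any 1 of the 8 libraries compared (adjusted p from 0.0584 to 0.130), and the other helicase subunits in LEGSKO+BSO epithelia had log2 changes of -0.16 (Mcm2), -0.13 (Mcm4), -0.15 (Mcm5), -0.21 (Mcm6) and -0.05 (Mcm7), none called. Markers of other cells differed in the same comparison. Of the 5 cornea and conjunctiva genes tested, 3 were higher in LEGSKO+BSO epithelia (Krt15 2.20-fold, Krt19 1.48-fold, Aldh3a1 2.08-fold), as were Gpnmb of pigmented tissue (5.63-fold, 1 of 9) and Col1a2 of stroma (4.59-fold, 1 of 5), while the 13 retina genes had a median log2 change of -1.38 with 0 called. Of the 9 lens epithelial markers, Foxe3 was 1.97-fold higher and Pdgfra 1.81-fold lower. Their part in the Mcm3 result was not tested.

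Proliferation markers did not separate the conditions in epithelia. Mki67 was at log2 -0.17 ± 0.14 SE, adjusted p = 0.631 in LEGSKO and log2 0.02 ± 0.14 SE, adjusted p = 0.962 in LEGSKO+BSO, and Top2a at log2 -0.12 ± 0.14 SE, adjusted p = 0.734 and log2 0.07 ± 0.14 SE, adjusted p = 0.8602. Their values overlapped in all 3 groups. Among inhibitors, Cdkn1b was 1.21-fold lower in LEGSKO+BSO epithelia without passing the test (log2 -0.27 ± 0.07 SE, adjusted p = 0.0875). Without LEGSKO+BSO Epithelia 2, which carried the highest Cdkn1b and Cdkn1c values of its group, both genes passed, Cdkn1b at log2 -0.33 (adjusted p = 0.0242) and Cdkn1c at log2 -0.65 (adjusted p = 0.0303). That library also had the highest crystallin share of its group, 13.2% of counts against 9.16%, 9.04% and 7.07% in libraries 1, 3 and 4. Crystallins took 10.9% to 14.7% of counts in WT epithelia and 8.45% to 13.8% in LEGSKO epithelia. Cdkn1c was higher in fibers, and the part of fiber RNA in its epithelial values was not tested.

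In fibers 37 genes could be tested. In LEGSKO fibers 0 were called by edgeR (smallest adjusted p = 0.124, 0 by DESeq2), against 1.64% of 13436 genes (1.09% higher, 0.543% lower). Of the 37, 4 had an unadjusted p below 0.05 there, beside 15% of all genes. In LEGSKO+BSO fibers 1 was called, Ccnd1, higher, against 5.52% (3.05% higher, 2.47% lower). Between LEGSKO+BSO and LEGSKO fibers 0 were called by edgeR (smallest adjusted p = 0.325, 0 by DESeq2), against 0.0298% (0.0223% higher, 0.00744% lower). Here 1 of the 37 had an unadjusted p below 0.05, beside 10.5% of all genes. Both comparisons with WT use the same WT libraries.

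Ccnd1 was the called gene, with the fiber values given above. Its LEGSKO+BSO fiber values were all above the 4 WT fiber values, 1.31-fold on average (log2 0.39 ± 0.10 SE, adjusted p = 0.0341). LEGSKO fiber values overlapped with the WT range only through WT Fibers 1 (log2 0.32 ± 0.10 SE, adjusted p = 0.124). WT Fibers 1, the library with the high crystallin share, held the highest WT value, and without it Ccnd1 was at log2 0.51 in LEGSKO+BSO (adjusted p = 4.05e-04) and at log2 0.43 in LEGSKO (adjusted p = 0.00193). Leaving out any other 1 of the libraries ended the LEGSKO+BSO call (highest adjusted p = 0.0854). The part of that library's make-up in the result was not tested.

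Other D cyclins and Mcm5 were also higher on average in fibers without passing the test, Mcm5 with a larger fitted change than Ccnd1. Ccnd3 was at log2 0.39 ± 0.12 SE, adjusted p = 0.0674 in LEGSKO+BSO fibers and Ccnd2 at log2 0.41 ± 0.22 SE, adjusted p = 0.289. Mcm5 was 1.76-fold higher in LEGSKO fibers (log2 0.82 ± 0.26 SE, adjusted p = 0.137) and 1.78-fold higher in LEGSKO+BSO fibers (log2 0.83 ± 0.25 SE, adjusted p = 0.0669), with no overlap with WT. Its lowest WT value, 0.818 CPM, was again in WT Fibers 1. DESeq2, which called 1138 genes in all against 742 by edgeR, called Ccnd3 and Mcm5 as well as Ccnd1 in LEGSKO+BSO fibers. The immune marker Lyz2, which encodes a lysozyme, moved with that group: it was at 0.388 to 0.9 CPM in WT fibers, 0.509 to 0.831 in LEGSKO fibers and 3.78 to 5.51 in LEGSKO+BSO fibers (6.72-fold higher than in WT, adjusted p = 6.94e-05), and it was the 1 gene called of the 2 immune markers that could be tested. All 15 immune markers summed to 1.33 to 2.59 CPM in WT fibers, with Aif1, C1qa, C1qb, C1qc and Cd3e at 0, to 1.58 to 2.55 in LEGSKO fibers, with C1qc, Laptm5 and Cd3e at 0, and to 5.49 to 9.13 in LEGSKO+BSO fibers, with Cd3e at 0. Without Lyz2 the other 14 summed to 0.751 to 1.99, 0.937 to 2.04 and 1.57 to 3.62 CPM, and the groups overlapped. The muscle and stroma gene Acta2 was 1.30-fold higher than in WT in LEGSKO+BSO fibers (adjusted p = 0.0192) and 1.31-fold higher in LEGSKO fibers (adjusted p = 0.0345). The part of these genes in the result was not tested.

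**Figure D5:**
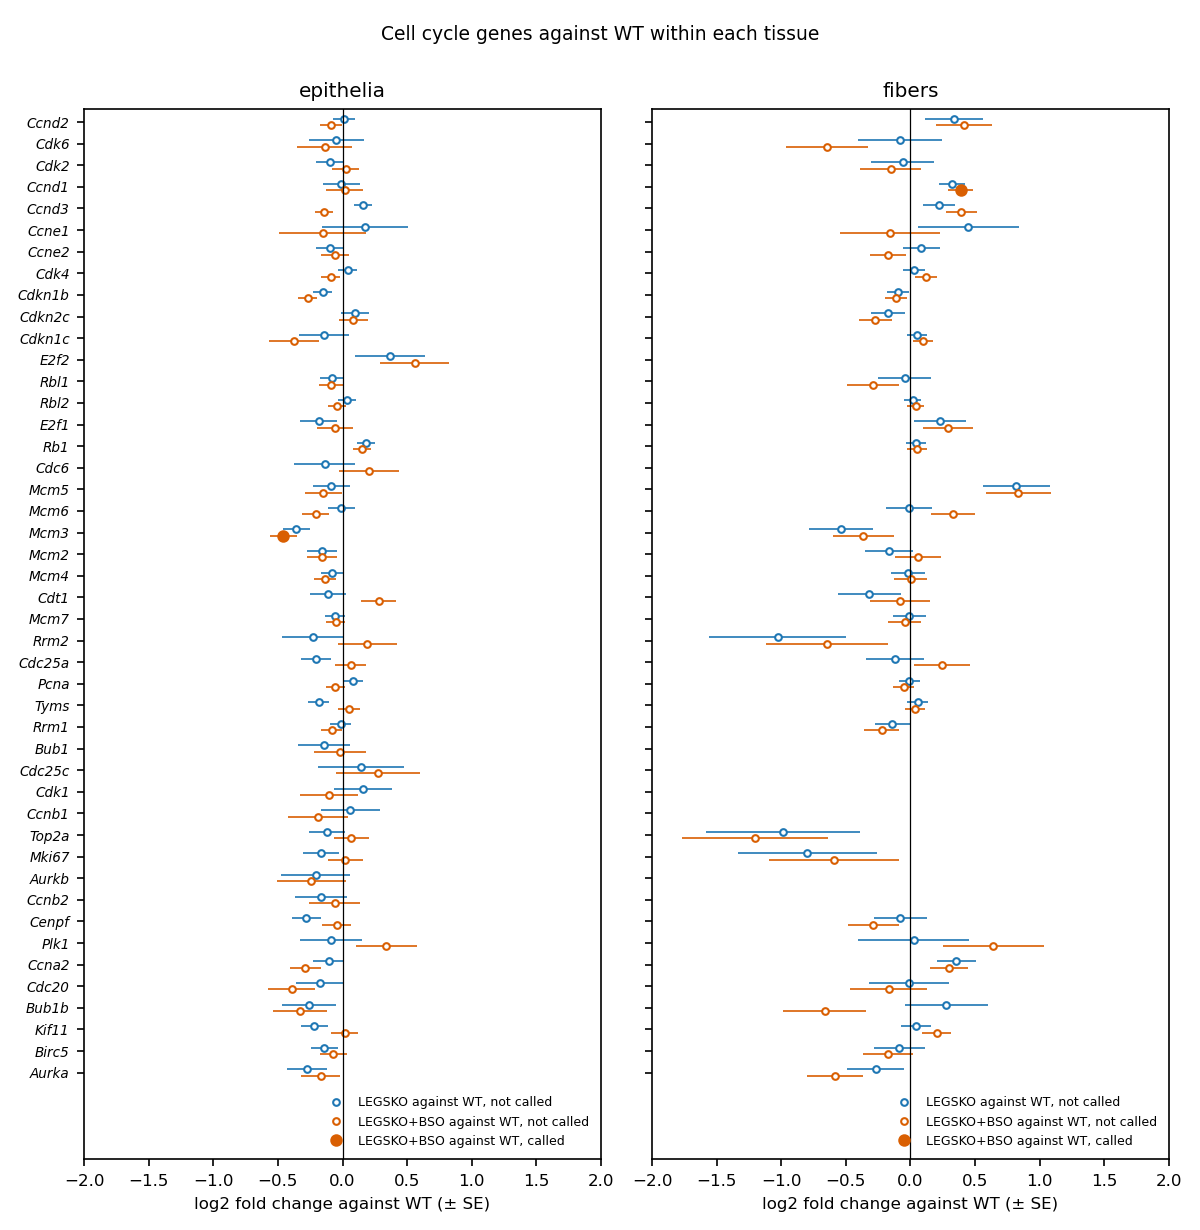
Log2 fold change against WT, with its standard error, of each gene in LEGSKO and LEGSKO+BSO epithelia (left) and fibers (right); filled points were called at an adjusted p below 0.05, open points were not, and genes without a point in fibers were below the count filter there. The called genes are Mcm3 in LEGSKO+BSO epithelia (-0.46) and Ccnd1 in LEGSKO+BSO fibers (0.39), and the widest error bars in fibers belong to the genes with few counts.

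A difference in response between tissues was tested with an interaction term in the fit of 24 libraries. For LEGSKO against WT 0 of 45 genes were called by edgeR (smallest adjusted p = 0.283, for Mcm5, 0 by DESeq2), against 0.103% of all genes (0.0321% higher, 0.0707% lower). An unadjusted p below 0.05 was found for 2 of the 45, beside 9.06% of all genes. For LEGSKO+BSO against WT 0 were called by edgeR (smallest adjusted p = 0.0815, for Ccnd3), against 0.276% of all genes (0.161% higher, 0.116% lower). An unadjusted p below 0.05 was found for 5 of the 45, beside 13.6% of all genes. DESeq2 called 2 of the 45, and 302 genes in all against 43 by edgeR. Ccnd3 moved -0.14 in epithelia and 0.39 in fibers on the log2 scale, a difference of log2 0.54 ± 0.14 SE, adjusted p = 0.0815. Mcm5 had a difference of log2 0.97 ± 0.27 SE, adjusted p = 0.09599. The decrease of Mcm3 was not shown to be particular to epithelia (log2 0.09 ± 0.23 SE, adjusted p = 0.916), nor the increase of Ccnd1 to fibers (log2 0.37 ± 0.19 SE, adjusted p = 0.392).

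Other genes of the cycle, in lists compiled beside the 45, were read for the same comparisons. Of 65 further G2 and mitosis genes, 48 were lower and 9 higher in WT fibers than in WT epithelia, with a median log2 change of -1.84 beside -0.09 for all genes. Of these 65, 22 failed the count filter in fibers alone and so had to be lower; of the other 43, 26 were lower and 9 higher, with a median of -1.15. The lower genes with the smallest adjusted p were Wee1, an inhibitory kinase of Cdk1, Incenp and Ncapd2, and the higher ones Ube2s, Racgap1 and Espl1. Ube2s, a ubiquitin-conjugating enzyme of the anaphase-promoting complex, was 9.95-fold higher (adjusted p = 1.06e-17). Of 47 further S phase genes, 19 were lower, led by Uhrf1, Slbp and Pole, and 15 higher, led by Rpa1, Rfc4 and Prim1, with a median of -0.14. These shares, 40.4% lower and 31.9% higher, lie near those of all genes, 39.4% and 37%. Of 35 further control genes, 16 were higher, led by Gadd45a, Ccng1 and Ccni, and 12 lower, led by Btg1, Trp53 and Myc, which is 45.7% higher and 34.3% lower. In each of the S phase and control lists, 4 of the genes failed the filter in fibers alone. On total counts the higher and lower genes numbered 1 and 61 for G2 and mitosis, 5 and 34 for S phase and 5 and 22 for control. Over all 15560 genes tested, 1982 were higher and 11462 lower on that scale. The share lower among S phase genes lies near that of all genes, and among control genes below it. Ube2s remained called higher.

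With glutathione deficiency edgeR called 0 genes of these 3 lists in LEGSKO epithelia. The unadjusted p was below 0.05 for 5 of 47 S phase, 6 of 65 G2 and mitosis and 6 of 35 control genes, beside 14.1% of all genes. DESeq2, with 447 calls over all genes against 127 by edgeR, called the control genes Tfdp2, higher, and Btg2, lower. Wee1 was 1.49-fold higher in LEGSKO+BSO epithelia (adjusted p = 0.0346), and it was the 1 gene of these lists that edgeR called in that comparison. DESeq2, with 565 calls over all genes there against 177 by edgeR, called Btg2, lower, in addition. The Wee1 call was lost without WT Epithelia 2 or without LEGSKO+BSO Epithelia 1, 3 or 4 (adjusted p up to 0.101). In fibers Cdc7, the kinase that fires licensed origins, was 2.08-fold lower in LEGSKO (adjusted p = 0.0151) and 1.99-fold lower in LEGSKO+BSO (adjusted p = 0.00915). Both Cdc7 calls held without each library compared and were lost on total counts (adjusted p = 0.144 and 0.114). The LEGSKO+BSO change of Cdc7 differed between tissues by log2 -1.04 (adjusted p = 0.04605), a call lost without 12 of the 16 libraries (adjusted p up to 0.0966), with DESeq2 size factors (0.0534), on total counts (0.259), with no filter (0.0547) and with the replicate block (0.0701). Gmnn, which encodes geminin, an inhibitor of Cdt1, was 1.42-fold lower in LEGSKO+BSO fibers (adjusted p = 0.0357), and Fam83d, a spindle protein, was 2.90-fold lower (adjusted p = 0.0212). Gadd45g, a stress-responsive growth arrest gene, was 1.62-fold higher in LEGSKO fibers (adjusted p = 0.0257). The Gmnn call was lost on total counts (adjusted p = 0.387), with the replicate block (adjusted p = 0.0592) and without LEGSKO+BSO Fibers 1, 3 or 4. The Fam83d call was lost on total counts (adjusted p = 0.105), with no filter (adjusted p = 0.0538) and without WT Fibers 4 or any 1 LEGSKO+BSO fiber library, and the Gadd45g call was lost without WT Fibers 2, 3 or 4 or LEGSKO Fibers 2 or 3. With 1 library left out the adjusted p of these 3 genes reached 0.111.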

How the data were processed

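RNA of 24 libraries was read from 1 table of raw counts per Entrez gene, deposited by the authors. Per the submitters' processing notes the tools were CASAVA 1.8, bcl2fastq, TopHat and DESeq, with mm10 (GRCm38) as the build. Which tool counted the reads, with which annotation and strand setting, and the kit: not given in the sources used here. All 24 columns were matched to groups by the labels, and 0 per-sample columns were left unused. No libraries of the same group were duplicates (chi-square per degree of freedom of 5.43 or more for every pair within a group). Pairs across groups were not checked.

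Symbols were matched for 24334 of 24415 genes. The counts as deposited were fitted with edgeR 4.0.16 in R 4.3.3 (TMM scaling, genes kept by filterByExpr at 10 counts or 15 in total, quasi-likelihood F test, Benjamini-Hochberg adjustment over all genes tested). Comparisons within a tissue used its 12 libraries, and those between tissues all 24. The coefficient of variation between libraries (square root of edgeR's common dispersion) was 14.2% in epithelia, 12.8% in fibers and 13.7% over all. CPM per kilobase used the exon length of GENCODE vM21. The edgeR fit and test were tried on simulated counts with known changes. This was done for LEGSKO+BSO against WT in epithelia and in fibers, and for WT fibers against WT epithelia. The other steps had no simulated test.

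The 45 genes and the other lists were chosen with earlier results of these data known. Values per library are given for genes called within a tissue, for the 2 lowest adjusted p in each direction of each role in the WT tissue comparison, and for Mki67, Top2a, Ccnd1, Ccnd2, Cdkn1b and Cdkn1c. From the other lists, the 3 called genes with the smallest adjusted p in a direction are named, and further genes are named by level only. Alternatives were DESeq2 1.42.0, its size factors, total counts, no filter, crystallins left out, the replicate number as a block, fits of only 2 groups, and each library left out. The values of 1 lens fiber marker are not reported here.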

Additional observations from a re-analysis of the deposited data

Results flagged for a closer look

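Of 114 groups of 4 libraries tested (19 genes in 6 groups), 12 held a library whose gap to its nearest neighbour was above Dixon's critical share of the group's range, which is 10.5% of groups; chance flags about 1 in 20. Ccnd1 in LEGSKO+BSO Fibers 4 was at 138 CPM, against 128 to 129 in the other 3 libraries of its group (gap of 0.871 of the range). LEGSKO+BSO Fibers 4 held 34.2 CPM of Ccnd2, where the other 3 had 20.6 to 21.7 (gap of 0.922 of the range). Cdk2 in WT Fibers 1 was at 1.88 CPM, against 3.26 to 3.38 in the other 3 libraries of its group (gap of 0.916 of the range). LEGSKO+BSO Epithelia 4 held 12.5 CPM of Cdk2, where the other 3 had 10.04 to 10.4 (gap of 0.843 of the range). Cdkn1b in LEGSKO+BSO Epithelia 2 was at 62.9 CPM, against 52.7 to 53.01 in the other 3 libraries of its group (gap of 0.973 of the range). LEGSKO Fibers 3 held 3.28 CPM of Rbl1, where the other 3 had 2.61 to 2.62 (gap of 0.985 of the range). Mcm5 in WT Fibers 1 was at 0.818 CPM, against 1.497 to 1.603 in the other 3 libraries of its group (gap of 0.866 of the range). LEGSKO Fibers 2 held 28.2 CPM of Pcna, where the other 3 had 22.7 to 23.4 (gap of 0.877 of the range). Pcna in LEGSKO+BSO Epithelia 1 was at 34.8 CPM, against 31.5 to 31.7 in the other 3 libraries of its group (gap of 0.943 of the range). LEGSKO+BSO Fibers 2 held 0.796 CPM of Rrm2, where the other 3 had 0.273 to 0.338 (gap of 0.876 of the range). Mki67 in LEGSKO+BSO Fibers 4 was at 1.54 CPM, against 0.575 to 0.624 in the other 3 libraries of its group (gap of 0.948 of the range). LEGSKO Fibers 1 held 1.19 CPM of Top2a, where the other 3 had 0.234 to 0.319 (gap of 0.911 of the range). LEGSKO+BSO Fibers 4, high in Ccnd1, Ccnd2 and Mki67, is also the fiber library with the most signal of the 6 epithelial markers (7.12%). WT Fibers 1, low in Cdk2 and Mcm5, is the library with the 50.1% crystallin share. The part of these features in the gene values was not tested.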

How the results depend on the processing

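Of the alternative values of single named genes, 751 kept their direction and their side of the threshold, 41 fell short of the threshold, 6 passed it and 5 reversed; of the counts of members called, 145 stayed within 1.5 times, 17 dropped to 0, 5 rose from 0 and 6 moved otherwise. The 5 reversals are WT fibers against WT epithelia on total counts: Cdk4 at log2 -0.99, Cdkn2c at -0.073, Rb1 at -0.59, Rbl2 at -0.93 and Aurka at -0.75. In LEGSKO+BSO against WT epithelia the 1 call (Mcm3) went to 0 on total counts, with no filter and with the replicate block, was 2 with DESeq2 (Mcm3, Cdkn1b), and ran from 0 to 2 with 1 library left out, the 2 being Cdkn1b and Cdkn1c without LEGSKO+BSO Epithelia 2. In LEGSKO+BSO against LEGSKO epithelia DESeq2 called 1 in place of 0 (Ccnd3, lower). In LEGSKO against WT fibers the count ran from 0 to 1 with 1 library left out (Ccnd1 without WT Fibers 1). In LEGSKO+BSO against WT fibers the 1 call became 2 on total counts and with no filter (Ccnd1, Ccnd3), 3 with DESeq2 (with Mcm5 too), 0 with the replicate block, and 0 to 3 with 1 library left out: 3 without WT Fibers 1 (Ccnd1, Ccnd2, Ccnd3) and, without LEGSKO+BSO Fibers 3, 1 other gene, Aurka, lower. For the difference between tissues in LEGSKO+BSO, DESeq2 called 2 in place of 0 (Ccnd3, Mcm5), and leaving out 1 library gave 0 to 1 (Ccnd3 without WT Fibers 1, Cdkn1c without LEGSKO+BSO Epithelia 2). The cause of these changes was not tested. For the 8 calls named from the other cell cycle lists, alternatives added after seeing the data kept 82 values on their side of the threshold and took 39 below it.

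Within a tissue the replicate numbers did not pair the libraries: deviations of libraries with the same number correlated from -0.249 to 0.248 (median -0.0119). Different numbers gave -0.314 to 0.279 (median 0.0143). Between the tissues of a condition, same numbers correlated from -0.0495 to 0.194 (median 0.0422) and different numbers from -0.144 to 0.096 (median -0.0214). The same-number values were 0.0164 to 0.194 in WT and 0.0351 to 0.124 in LEGSKO+BSO. The main tissue tests treated the libraries as unpaired. With the replicate block the calls of Mcm3 (adjusted p = 0.0788), Ccnd1 (adjusted p = 0.054) and Cdk4 (adjusted p = 0.0609, WT tissues) were lost, LEGSKO fibers against epithelia lost Aurka (38 called), and LEGSKO+BSO gained Mcm7 (41 called).

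Over all genes, DESeq2 called 447 in LEGSKO and 565 in LEGSKO+BSO against WT epithelia, 679 between those 2 groups, 501, 1138 and 81 in the same comparisons of fibers, and 78 and 302 for the differences between tissues, where edgeR called 127, 177, 109, 220.0, 742, 4, 16 and 43. On total counts edgeR called 64 between LEGSKO+BSO and LEGSKO epithelia, 75 in LEGSKO and 173 in LEGSKO+BSO against WT fibers, and 4 and 13 for the differences between tissues, and the share of higher calls went from 67.8% to 78.2% (LEGSKO+BSO against WT epithelia), from 66.8% to 89.3% (LEGSKO against WT fibers) and from 55.3% to 78% (LEGSKO+BSO against WT fibers). Depth limits the fiber values of 8 members to few counts per group, where only large differences between conditions are detectable.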
